A study of Mus musculus with 28 samples.

Results

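BAC organoids are mouse colon epithelial organoids in which a single exposure to 4-hydroxytamoxifen (4-HT) deletes Apc and switches on the oncogenic Braf allele at the same time. Their 4-HT samples were compared here with their vehicle (EtOH) samples. The 8 BAC samples, 4 with each treatment, were chosen by their labels from the 28 samples of the series. They came from 2 of the 7 donor mice, Col286 and Col291, and each donor was represented by 2 cultures, called duplicates 1 and 2, which the study describes as distinct passages. Every culture was sampled with both treatments, so the 2 treatments were matched within 4 cultures. All 13519 genes counted were used.

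The BAC genotype is VillinCreERT2::BraffloxV600E/+::APCflox/flox on a C57BL/6N background. The CreERT2 recombinase, which enters the nucleus when 4-HT binds it, is driven by the promoter of the epithelial gene Villin. The EtOH samples carry the same alleles and the transgene, not recombined by intent. Organoids were exposed to 3.5 µM 4-HT for 24 hours and lysed for RNA 3 days after that, so the data describe an early state. AC organoids (VillinCreERT2::APCflox/flox, 1 donor, Col288, 4 samples) and BPAC organoids (the BAC alleles with a Trp53 R172H allele, 2 donors, 8 samples), treated in the same way, were used for comparison. The culture medium contained EGF, Wnt3a, R-spondin-1, Noggin and the GSK3 inhibitor CHIR99021 in both treatments. The BAC comparison rests on cultures of 2 mice, and the spread behind its p-values was estimated over all 28 samples, with cultures of 1 mouse entered as separate samples. In these bulk samples, fewer cells of a type and less RNA per cell cannot be told apart.

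APC is the scaffold of the complex that marks β-catenin for destruction. Without it, β-catenin stays in the nucleus with the TCF and LEF factors and keeps the genes of the crypt base on, among them stem cell genes and the inhibitors that normally limit WNT signalling. BRAF is the kinase that RAS uses to activate MEK and then ERK. The V600E form is active without RAS, and ERK in turn induces transcription factors of the AP-1 and ETS families and a set of inhibitors, the Sprouty, SPRED and dual-specificity phosphatase (DUSP) proteins, that dampen the same cascade. In the colon, WNT activity is highest at the crypt base and differentiated absorptive colonocytes line the surface.

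The BAC libraries held between 21046805 and 40068718 reads counted on genes, with the 2 highest totals in the 4-HT samples of duplicate 1 (40068718 and 37438687). Intervals and floors given below cover counting error only. Levels are counts relative to the scaled library size (CPM), with scaling by the trimmed mean of M values (TMM), and in each list of 4 values the order is Col286 duplicate 1, Col286 duplicate 2, Col291 duplicate 1 and Col291 duplicate 2. A gene is said to have risen or fallen when its adjusted p was below 0.01 in edgeR's quasi-likelihood test over all genes. All 10 epithelial markers were detected, and 5 of them fell (Vil1, Lgals4, Epcam, Cdh1 and Cldn7, by at most 0.70 on the log2 scale, or 3 falling and 1 rising with library size alone), with summed levels of 22919.8 to 31728 CPM with EtOH and 19974 to 25186 CPM with 4-HT. Of the fibroblast markers 2 of 10 were tested, with summed levels of 8.05 to 11.7 CPM and 5.53 to 6.82 CPM. The 4 of 10 immune markers tested summed to 11.9 to 16.8 CPM and 15.1 to 22 CPM, and the 2 of 10 endothelial, glial and muscle markers to at most 3.45 CPM in any BAC sample. In each of the 3 classes 1 marker fell, Pdgfrb (-2.8 ± 0.48) of pericytes and fibroblasts, Itgam (-2.08 ± 0.40) of myeloid cells and Pecam1 (-1.68 ± 0.43) of endothelium, of which the Pecam1 call was lost without Col286 duplicate 2 or Col291 duplicate 1 (log2 -1.97 to -1.51, adjusted p up to 0.0177). The median log2 change of the 4 immune markers was 0.071. With the culture entered as a block 1 of them rose, as did 1 with library size alone. The part of other cells in the results was not tested. The defining fibroblast gene Col1a1 and the pan-leukocyte gene Ptprc were not analysed here.

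The targeted genes gave an unequal check of the labels. Apc (ENSMUSG00000005871, chromosome 18, 34220924 to 34322552 in GRCm38) measured 28.7, 35.7, 29 and 42.3 CPM with EtOH and 53, 70.9, 54.8 and 70.5 CPM with 4-HT. Its count was thus higher with 4-HT in every culture (log2 fold change 0.88 ± 0.17 (SE), adjusted p = 0.000111). Braf (ENSMUSG00000002413, chromosome 6, 39603237 to 39725463) measured 22.7, 21, 21 and 20.2 CPM with EtOH and 20.6, 23.9, 20.5 and 24.2 CPM with 4-HT, and the groups overlapped (log2 fold change 0.071 ± 0.086 (SE), adjusted p = 0.505, with the opposite sign, -0.070, in duplicate 1 alone). The counts cover each gene as a whole, whereas the alleles remove or replace single exons, so neither count measures recombination. Xist was counted at 42.9 CPM or more in the 4 Col286 samples and at most 0.291 CPM in the 4 Col291 samples. The Y-linked gene Ddx3y was counted at 0 in the Col286 samples and at 24.1 CPM or more in the Col291 samples. These counts separated the BAC donors from each other. Xist was also counted in Col312 and Ddx3y in Col288, so a swap between donors of the same sex would not be seen.

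The treatment changed a large part of the transcriptome. Of the 13519 genes tested, 2751 rose (20.3%) and 2909 fell (21.5%), 41.9% in all. The 4 EtOH and 4 4-HT values did not overlap for 52.1% of all genes, and any count of members given below has to be read against these shares. The falls were larger: 386 genes fell by more than 2-fold when this was itself tested (2.86%), and 98 rose (0.725%). The median log2 change over all genes was -0.036 with TMM, -0.021 with DESeq2's size factors and 0.13 with library size alone. With the culture as a block 7017 genes passed (51.9%), 3414 rising (25.3%) and 3603 falling (26.7%). With library size alone 3881 genes rose (28.7%) and 2066 fell (15.3%), so that 65.3% of the calls were rises rather than 48.6%, and small changes depend on the scaling. The plot of change against level shows both tails.

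**Figure D1:**
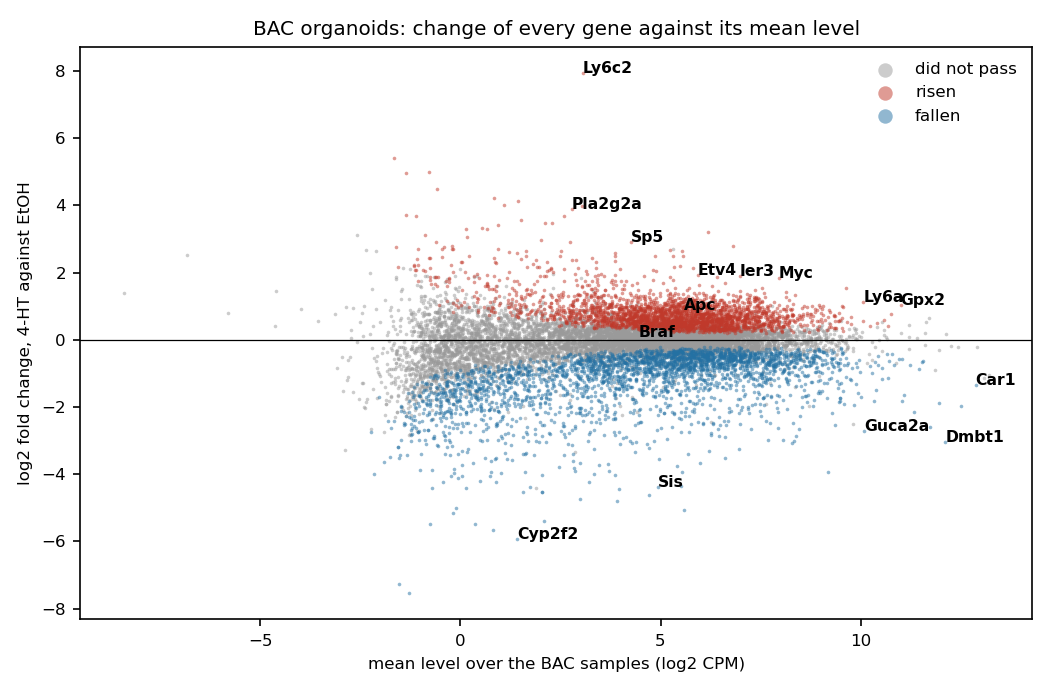
Each point is a gene, with its mean level over the 8 BAC samples on the horizontal axis (log2 CPM) and its log2 fold change, 4-HT against EtOH, on the vertical axis. Red points rose (2751), blue points fell (2909) and grey points did not pass, and the 3 genes without a count in BAC samples are not drawn.

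WNT targets and feedback genes were among the lists that moved most clearly in one direction. Of the 26 tested, 19 rose and 1 fell, with a median log2 change of 1.08 against -0.036 over all genes. Sp5, a transcription factor induced directly by β-catenin, rose most, followed by Tnfrsf19 (a TNF receptor family member of crypt base cells), Lef1 (a β-catenin partner) and Ascl2 (a stem cell transcription factor). Sp5 measured 6.08, 2.79, 5.36 and 3.78 CPM with EtOH and 34.5, 30.5, 46.9 and 23.7 CPM with 4-HT (log2 fold change 2.91 ± 0.29 (SE), adjusted p = 1.45e-08). Lef1 measured 0.372, 0.207, 0.325 and 0.472 CPM with EtOH and 1.86, 2.55, 2.31 and 1.26 CPM with 4-HT (log2 fold change 2.5 ± 0.38 (SE), adjusted p = 6.48e-06). The 4-HT values of both genes lay above every EtOH value.

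To show what precedes the start sites of the genes that rose most, the 250 bases upstream are given for the 2 most risen WNT genes and the 2 most risen ERK-related genes with an entry in RefSeq's promoter table (GRCm38.p6). Capitals mark matches, on either strand, to a TCF/LEF motif (CTTTGAA or CTTTGAT), an AP-1 motif (TGANTCA) or an ETS motif (CCGGAAG).
Sp5, chr2:70474673-70474922, plus strand: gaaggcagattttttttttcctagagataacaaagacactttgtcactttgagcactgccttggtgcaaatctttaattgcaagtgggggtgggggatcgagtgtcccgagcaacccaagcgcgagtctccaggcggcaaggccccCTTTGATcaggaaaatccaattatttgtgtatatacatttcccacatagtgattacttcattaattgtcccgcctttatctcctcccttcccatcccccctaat
Tnfrsf19, chr14:61046856-61047105, minus strand, first of 2 entries: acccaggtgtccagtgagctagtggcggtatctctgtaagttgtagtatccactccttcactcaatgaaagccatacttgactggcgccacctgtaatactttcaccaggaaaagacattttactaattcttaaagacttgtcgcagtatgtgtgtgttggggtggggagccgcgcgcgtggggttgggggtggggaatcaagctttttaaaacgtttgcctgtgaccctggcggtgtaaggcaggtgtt
Ier3, chr17:35821463-35821712, plus strand: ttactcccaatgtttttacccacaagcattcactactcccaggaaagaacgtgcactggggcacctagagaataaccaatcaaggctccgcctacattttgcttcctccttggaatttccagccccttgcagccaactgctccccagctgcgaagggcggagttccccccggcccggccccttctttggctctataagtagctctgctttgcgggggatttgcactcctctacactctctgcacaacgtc
Elk3, chr10:93311160-93311409, minus strand: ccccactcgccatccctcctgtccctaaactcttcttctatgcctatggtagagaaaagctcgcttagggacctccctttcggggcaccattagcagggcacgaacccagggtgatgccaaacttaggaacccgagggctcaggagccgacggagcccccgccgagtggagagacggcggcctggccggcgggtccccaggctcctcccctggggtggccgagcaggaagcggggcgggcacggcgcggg

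The Sp5 window held 1 TCF/LEF match, whose first base lies 104 bases before the start site, and the other 3 windows held no match to any of the motifs. A TCF/LEF match was present in 5.22% of the windows of risen genes (114 of 2182), in 5.22% of those of fallen genes (109 of 2089) and in 5.55% of those of all genes tested with an entry (561 of 10115). For the AP-1 motif the shares were 3.71%, 5.84% and 4.63%, and for the ETS motif 17.3%, 8.95% and 13.9%. Over all 27025 promoters of the table the shares were 7.67%, 6.87% and 7.05%. These are counts of letters in short windows and say nothing about binding.

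Negative feedback genes of the WNT pathway that rose included Axin2, Nkd1 and Apcdd1. Axin2 (a scaffold of the destruction complex) had a log2 change of 0.86 ± 0.19 (SE), Nkd1 (which antagonizes Dishevelled) of 2.15 ± 0.33 and Apcdd1 (a membrane-bound WNT inhibitor) of 2.33 ± 0.39. Myc, which drives growth, measured 86.9, 108, 98 and 141 CPM with EtOH and 408, 340.5, 450.4 and 359 CPM with 4-HT (log2 fold change 1.84 ± 0.19 (SE), adjusted p = 1.86e-08). Ccnd1, encoding cyclin D1, changed by 0.99 ± 0.21, and the adhesion receptor gene Cd44 by 1.36 ± 0.21. Among the TCF and LEF factors, Tcf7 rose (1.9 ± 0.18) while Tcf7l2, the main TCF of the intestinal epithelium, was the only member of the list that fell (-0.90 ± 0.15, adjusted p = 2.37e-05). With a culture left out in turn, 18 members of the list rose in each of the 4 fits and 1 fell.

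**Figure D2:**
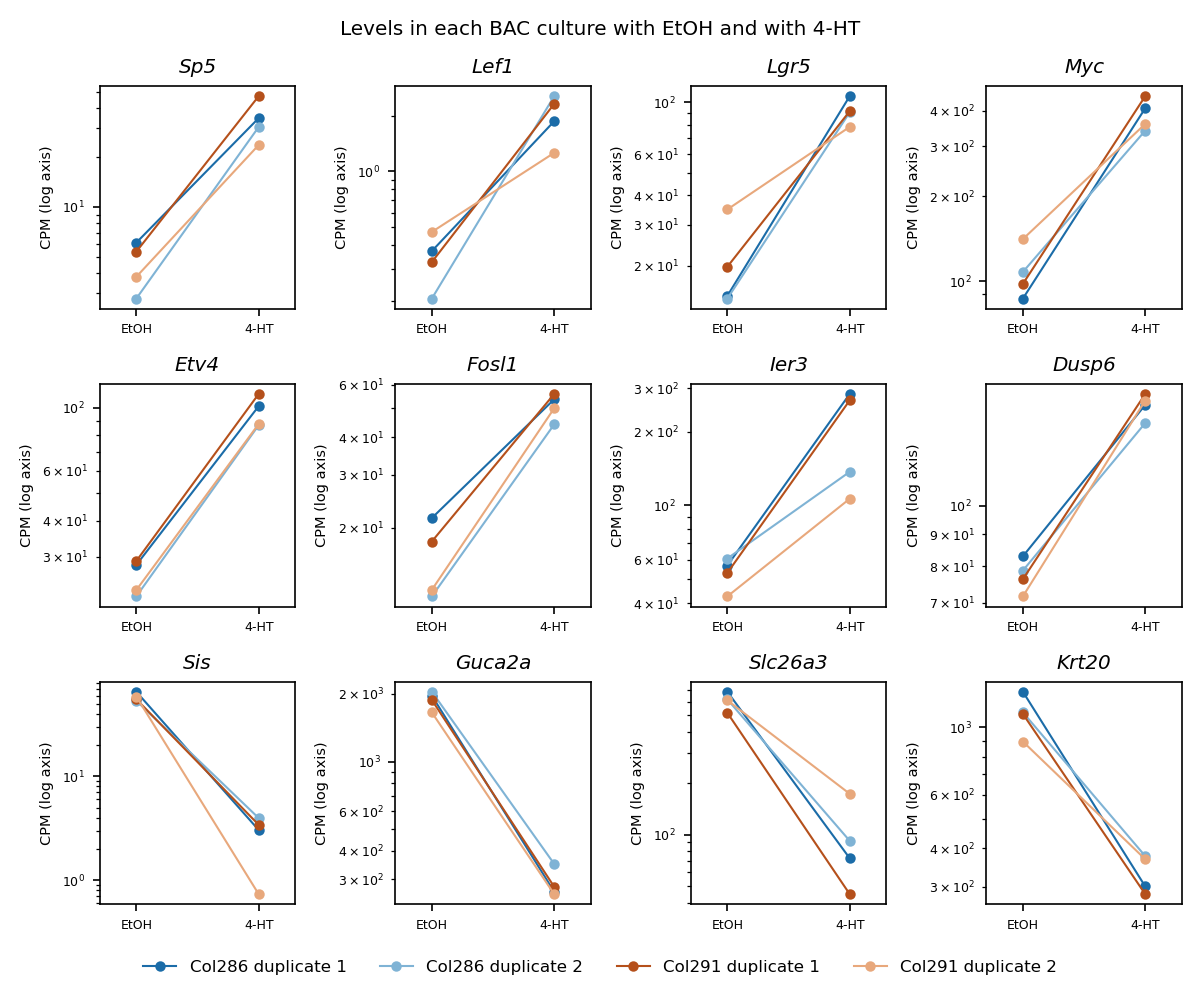
Levels of 12 genes in CPM (log axes, each panel with its own range) with EtOH and with 4-HT, with 1 line per BAC culture. The WNT and ERK-related genes in the upper panels rise in all 4 cultures, Ier3 more in both duplicate 1 cultures, and the colonocyte genes in the lower panels fall in all 4.

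Genes downstream of ERK moved in both directions. Of 14 feedback inhibitors tested, 5 rose and 3 fell. Of 21 AP-1, EGR and ETS factors, a list that also holds the early gene Ier3, 8 rose and 4 fell. The members that rose included the ETS factors Etv4, Etv5, Ets1 and Elk3, the AP-1 subunit Fosl1, the survival-related early gene Ier3, and the inhibitors Dusp7, Dusp6, Spry4, Spry1 and Spred1. Etv4 measured 28, 21.7, 28.9 and 22.9 CPM with EtOH and 101, 86.8, 112 and 87.6 CPM with 4-HT (log2 fold change 1.93 ± 0.15 (SE), adjusted p = 4.04e-10), and its 4 culture changes were close together (1.85, 1.99, 1.95 and 1.93). Fosl1 measured 21.5, 11.8, 18 and 12.4 CPM with EtOH and 53.6, 44.2, 55.9 and 50.1 CPM with 4-HT (log2 fold change 1.68 ± 0.18 (SE), adjusted p = 5.98e-08). For both genes the lowest 4-HT value was at least 2-fold above the highest EtOH value.

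Ier3 measured 56.9, 60.8, 53.1 and 42.6 CPM with EtOH and 285, 137, 268 and 107 CPM with 4-HT (log2 fold change 1.9 ± 0.26 (SE), adjusted p = 1.73e-06). All 4-HT values lay above the EtOH values, and those of duplicate 1 were above those of duplicate 2, with culture changes of 2.32, 1.17, 2.34 and 1.32. Elk3, an ETS factor that ERK phosphorylates, changed by 1.63 ± 0.17 and Ets1 by 1.64 ± 0.18. Etv5, the close relative of Etv4, changed by 1.36 ± 0.19.

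The ERK phosphatase gene Dusp6, a standard readout of ERK activity, measured 83, 78.8, 76.3 and 71.6 CPM with EtOH and 145, 136, 151 and 147 CPM with 4-HT (log2 fold change 0.90 ± 0.16 (SE), adjusted p = 4.49e-05). Its rise was present in every culture and smaller than that of Etv4. Dusp7, another cytoplasmic ERK phosphatase, changed by 1.39 ± 0.14, Spry4 by 1.23 ± 0.19, Spry1 by 0.96 ± 0.16 and Spred1 by 0.70 ± 0.13. Dusp4, the nuclear phosphatase, had a change of 0.57 ± 0.20 that missed the threshold (adjusted p = 0.0169) and passed it with the culture as a block (adjusted p = 0.000355). The Sprouty genes were split, since Spry2 fell (-0.63 ± 0.11, adjusted p = 4.79e-05).

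The 4 factors that fell were Egr1, Jun, Fosl2 and Jund, or 2 of them without Col286 duplicate 1. Egr1, induced within minutes by ERK, measured 254, 147, 239.7 and 119.6 CPM with EtOH and 102, 83, 106 and 72.6 CPM with 4-HT (log2 fold change -1.06 ± 0.27 (SE), adjusted p = 0.0018), and its call was lost without Col286 duplicate 1, without its EtOH sample alone and without Col291 duplicate 1 (log2 -1.14 to -0.95, adjusted p up to 0.015). The AP-1 subunit genes Jun (-0.79 ± 0.17) and Fosl2 (-0.79 ± 0.15) fell. The phosphatase genes Dusp10, whose product acts on p38 and JNK, and Dusp5, a nuclear ERK phosphatase, fell as well (-1.21 ± 0.21 and -0.98 ± 0.20). The 35 genes of both lists are ordered by their change in the plot of ERK-related genes.

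**Figure D3:**
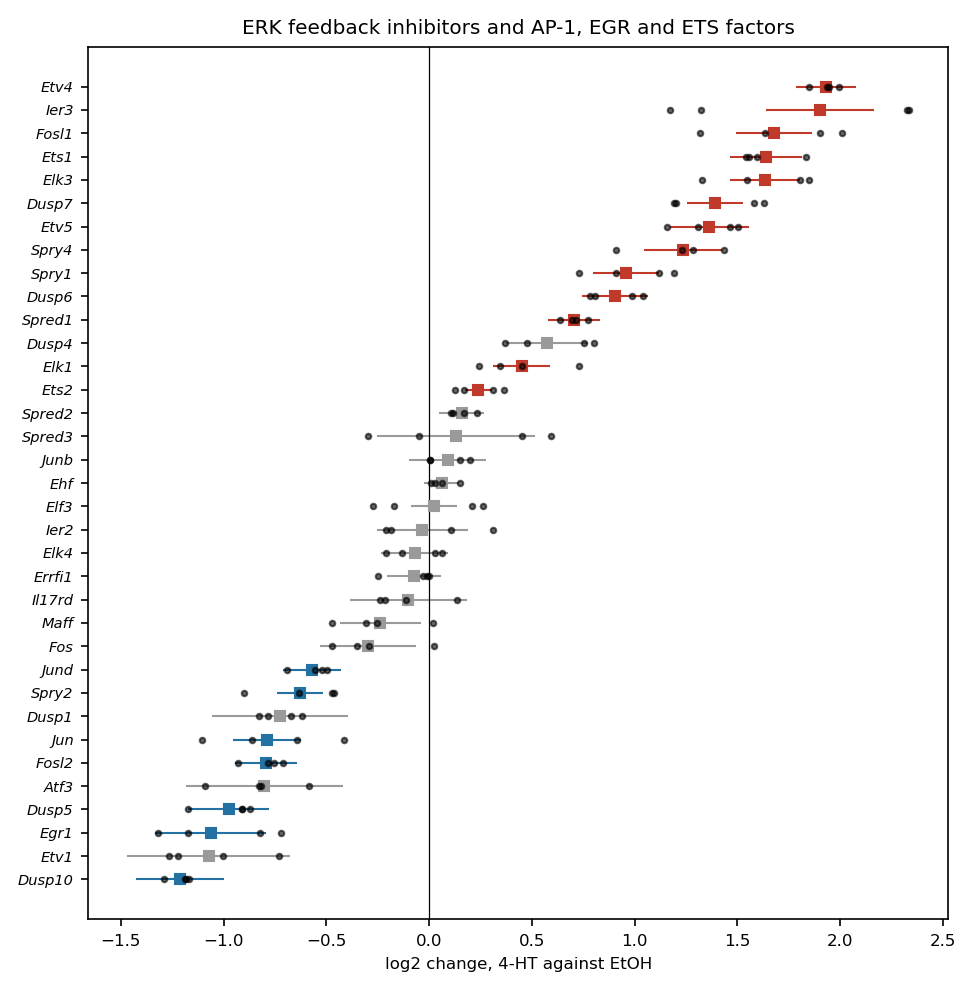
Log2 change, 4-HT against EtOH, of the 14 ERK feedback inhibitors and 21 AP-1, EGR and ETS factors tested. Squares are fitted changes with standard errors (red risen, blue fallen, grey not passed) and black dots the 4 cultures, from Etv4 at the top (1.93) to Dusp10 at the bottom (-1.21).

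Receptors of the EGF family fell while their ligands were mixed. Of 9 members tested 4 fell (Erbb3, Hbegf, Erbb2 and Egfr) and 1 rose, the ligand gene Btc (0.65 ± 0.13). Erbb3, the kinase-impaired partner receptor, measured 358, 326, 381 and 329 CPM with EtOH and 156, 186, 170.2 and 196 CPM with 4-HT (log2 fold change -0.98 ± 0.13 (SE), adjusted p = 9.48e-07). The receptor gene Erbb2 changed by -0.55 ± 0.12 and Egfr by -0.49 ± 0.14, of which the Egfr call was lost without any 1 of the 4 cultures (log2 -0.53 to -0.47, adjusted p up to 0.028). The ligand gene Hbegf changed by -0.73 ± 0.15, and Ereg by 0.59 ± 0.42 without passing (adjusted p = 0.245; 0.00709 with the block).

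Within the cascade itself transcripts moved in both directions. Of 20 genes from RAS to ERK, 3 rose (Rasal1, Shc1 and Nras) and 3 fell (Mapk3, Map2k1 and Araf), 30% against 41.9% of all genes. The median log2 change was -0.013. With library size alone 4 rose and 1 fell, with a median of 0.15. Mapk3, encoding ERK1, measured 388, 362, 371 and 341 CPM with EtOH and 215, 241, 221 and 214 CPM with 4-HT (log2 fold change -0.72 ± 0.098 (SE), adjusted p = 1.46e-06). The call of Map2k1, encoding MEK1 (-0.43 ± 0.13), was lost without any 1 of the 4 cultures (log2 -0.46 to -0.40, adjusted p up to 0.0367) and that of Shc1 without either duplicate 2 culture (log2 0.29 to 0.41, adjusted p up to 0.0226). Rasal1, encoding a RAS GTPase-activating protein, changed by 1.66 ± 0.42, a call lost without Col286 duplicate 1 and without either Col291 culture (log2 1.6 to 1.77, adjusted p up to 0.0139).

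Intestinal stem cell genes rose in the majority of the list, 11 of 21 with 2 falling. Lgr5, the R-spondin receptor gene that marks crypt base stem cells, measured 14.8, 14.5, 19.8 and 34.8 CPM with EtOH and 106, 90.7, 91.7 and 78.5 CPM with 4-HT (log2 fold change 2.12 ± 0.27 (SE), adjusted p = 5.29e-07). Ascl2 changed by 2.48 ± 0.28, and Ptpro (a receptor tyrosine phosphatase) by 2.44 ± 0.30. Of the 11 that rose, Tnfrsf19, Ascl2, Lgr5, Axin2, Rnf43 and Sox9 also belong to the WNT list, so the 2 counts are not separate. The falling members were the water channel gene Aqp4, whose call was lost without any 1 of the 4 cultures (log2 -1.87 to -1.63, adjusted p up to 0.0293), and Prom1.

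Genes of DNA replication, mitosis and ribosome production rose almost without exception. In the replication list 33 of 36 rose, in the mitosis list 29 of 32, and in the ribosome biogenesis list 27 of 28, with no member falling in any of them and median log2 changes of 0.85, 0.89 and 1.06. The helicase subunit gene Mcm2 measured 86, 57.6, 109 and 86.1 CPM with EtOH and 221, 194, 231 and 212 CPM with 4-HT (log2 fold change 1.34 ± 0.16 (SE), adjusted p = 2.01e-07). The mitotic kinase gene Plk1 measured 103, 82.6, 116 and 96.5 CPM with EtOH and 229, 205, 240.1 and 215 CPM with 4-HT (log2 fold change 1.16 ± 0.13 (SE), adjusted p = 5.4e-08), and the rDNA transcription factor gene Mybbp1a 179, 143, 227 and 197 CPM with EtOH and 461, 439, 503 and 492 CPM with 4-HT (log2 fold change 1.35 ± 0.12 (SE), adjusted p = 2.74e-09). In each of these the groups did not overlap.

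Pcna, the replication clamp, changed by 0.86 ± 0.10, while the proliferation marker Mki67 changed by 0.43 ± 0.14 and missed the threshold (adjusted p = 0.0138; 0.000263 with the block). Among cyclins and their inhibitors, 9 of 23 rose and 3 fell. Ccne1 (cyclin E1) changed by 1.09 ± 0.15 and Cdk4 by 0.93 ± 0.12. Cdkn2b, which encodes the inhibitor p15, measured 209.6, 227, 201 and 195 CPM with EtOH and 67.5, 66.2, 71.5 and 64.7 CPM with 4-HT (log2 fold change -1.62 ± 0.13 (SE), adjusted p = 9.26e-10), so it was lower with 4-HT in every culture. Cdkn1a (p21) did not pass (-0.58 ± 0.21, adjusted p = 0.0216; 0.00156 with the block), and 7 members fell in the blocked fit rather than 3.

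The list of p53 targets had 10 of 26 members risen and 3 fallen (11 and 1 with library size alone), or 6 to 8 risen and 1 to 2 fallen without 1 culture in turn, with the fewest rises without either Col291 culture and the fewest falls without either duplicate 2 culture. Trp53 itself measured 115, 97.9, 122 and 105 CPM with EtOH and 215, 197, 226 and 224 CPM with 4-HT (log2 fold change 0.97 ± 0.10 (SE), adjusted p = 4.52e-08). Gdf15, a stress-induced cytokine gene, changed by 1.49 ± 0.23, Aen (an apoptosis-related nuclease) by 1.11 ± 0.11, and Mdm2, the p53 ubiquitin ligase, by 0.50 ± 0.092. The death receptor gene Fas went the other way (6.91, 6.2, 5.97 and 6.25 CPM with EtOH and 1.49, 1.93, 1.41 and 1.54 CPM with 4-HT; log2 fold change -1.99 ± 0.23 (SE), adjusted p = 1.46e-07). In the BCL2 family 2 of 14 rose (Bid and Bax) and 3 fell (Bcl2l2, Pmaip1 and Bak1), and with the block 3 rose and 6 fell. With library size alone 3 rose and 1 fell, and 2 fell with DESeq2's size factors or limma-voom. Of the falls, Pmaip1 and Bak1 lost their calls with library size alone and without either duplicate 2 culture (log2 -0.90 to -0.76, adjusted p up to 0.0167 for Pmaip1, and log2 -0.71 to -0.42, adjusted p up to 0.0889 for Bak1). The rise of Bax lost its call without any 1 culture (log2 0.49 to 0.59, adjusted p up to 0.0406).

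Genes of differentiated colonocytes fell together. Of the 44 tested 41 fell and none rose (median log2 change -1.67), and their summed level went from 46126 to 49288 CPM with EtOH to between 15486 and 20314 CPM with 4-HT. Sis, the brush border sucrase-isomaltase, measured 65.3, 53.6, 55.4 and 58.7 CPM with EtOH and 3.05, 3.97, 3.42 and 0.735 CPM with 4-HT (log2 fold change -4.37 ± 0.50 (SE), adjusted p = 1.21e-07). Guca2a, the precursor of the hormone guanylin, measured 1965, 2047, 1882 and 1656 CPM with EtOH and 263, 349.9, 277 and 257 CPM with 4-HT (log2 fold change -2.72 ± 0.20 (SE), adjusted p = 2.4e-10), and the chloride-bicarbonate exchanger gene Slc26a3 686, 618, 516 and 611 CPM with EtOH and 72.6, 91.8, 44.7 and 173 CPM with 4-HT (log2 fold change -2.67 ± 0.42 (SE), adjusted p = 1.09e-05). The 4-HT values were all far below the EtOH values, with Col291 duplicate 2 lowest for Sis and highest for Slc26a3.

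Anpep (aminopeptidase N) changed by -3.89 ± 0.51, the dicarboxylate transporter gene Slc13a2 by -3.41 ± 0.39, and the butyrate transporter gene Slc5a8 by -3.32 ± 0.31. The keratin of the upper crypt, Krt20, measured 1308, 1119, 1106 and 898 CPM with EtOH and 300.1, 377, 283 and 369 CPM with 4-HT (log2 fold change -1.74 ± 0.29 (SE), adjusted p = 2.15e-05). Lypd8, which keeps flagellated bacteria from the epithelium, changed by -2.61 ± 0.25. The 3 members that did not pass were Aqp8, Cdkn1a and Ezr, of which Aqp8 (-2.5 ± 0.87, adjusted p = 0.0172; 0.000244 with the block) and Cdkn1a passed with the block. Without 1 culture in turn, 35 to 39 members fell.

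**Figure D4:**
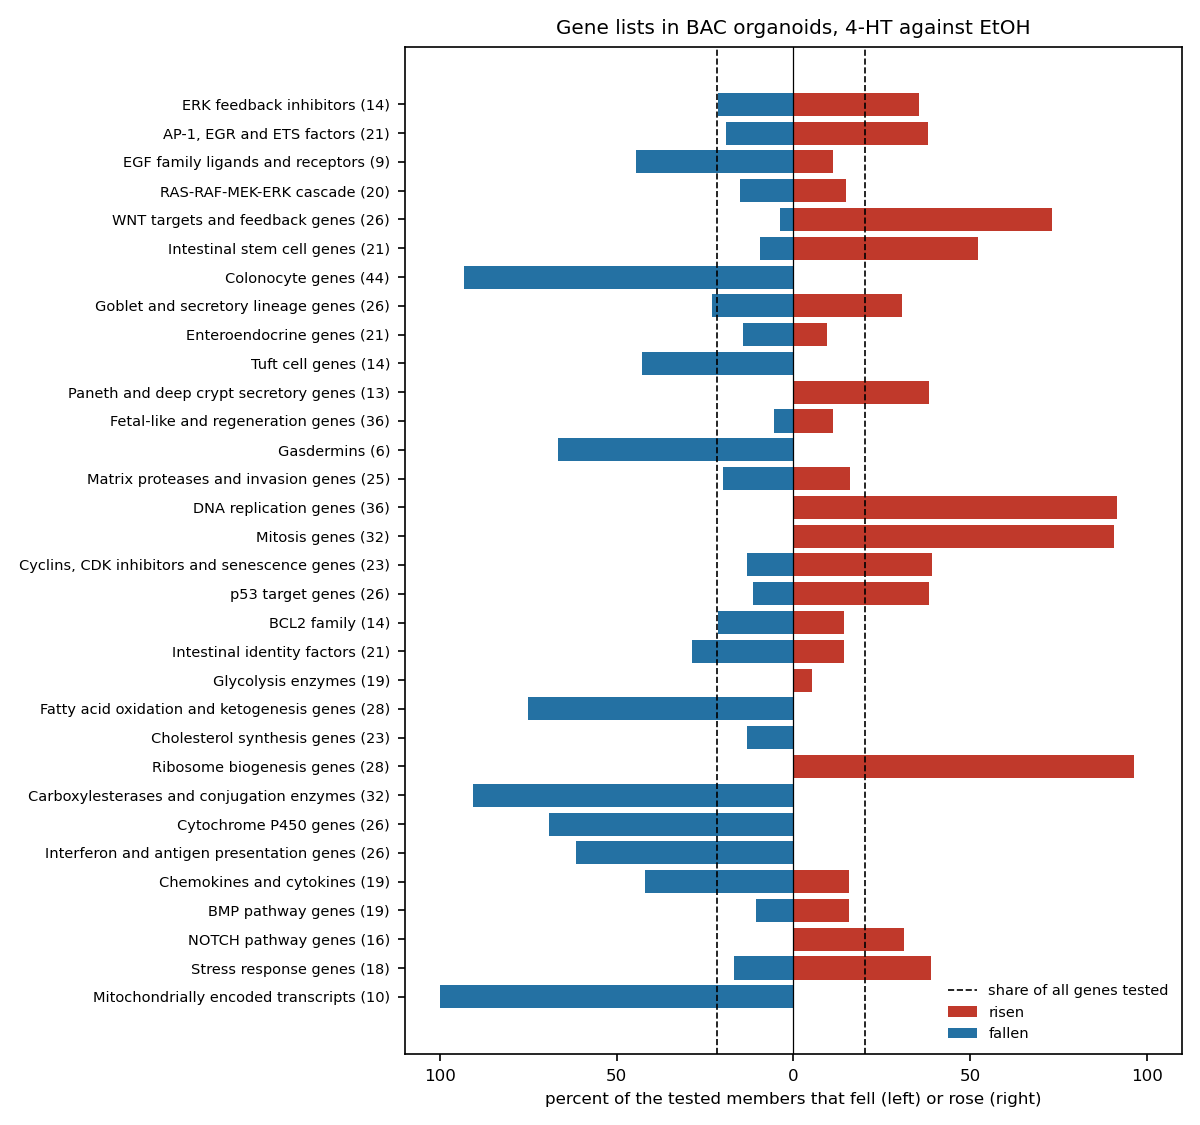
Percent of the tested members of each gene list that fell (blue, left) or rose (red, right) in BAC organoids, with the number tested in parentheses. Dashed lines mark the shares over all genes tested, 21.5% fallen and 20.3% risen, and lists such as colonocyte genes (41 of 44 fallen) and ribosome biogenesis genes (27 of 28 risen) lie far beyond them.

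Detoxifying enzymes fell with the colonocyte genes. Of the carboxylesterases and conjugation enzymes 29 of 32 fell, and of the cytochrome P450 genes 18 of 26, with none rising in either list. Ces1g, a carboxylesterase, measured 82.3, 93.1, 84.7 and 85.9 CPM with EtOH and 2.86, 6.55, 2.26 and 5.67 CPM with 4-HT (log2 fold change -4.34 ± 0.43 (SE), adjusted p = 1.45e-08). The sulfotransferase gene Sult1a1 changed by -3.95 ± 0.46 (-4.56 without Col286 duplicate 1), the glucuronosyltransferase gene Ugt2b36 by -4.52 ± 0.36 and the fatty acid hydroxylase gene Cyp4v3 by -4.0 ± 0.44. Cyp2c68 fell from 92.6 ± 10.1 CPM to 2.84 ± 1.42 CPM (mean ± SD, n = 4). Many of these genes sit in clusters of near-identical copies (Ces1, Cyp2c, Ugt1a), where the division of reads between neighbours is uncertain.

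Fat-burning genes fell too, 21 of 28 with none rising. Ppara, the nuclear receptor that induces many genes of fatty acid oxidation, measured 12.9, 14.5, 13.2 and 11 CPM with EtOH and 2.76, 4.38, 1.98 and 2.28 CPM with 4-HT (log2 fold change -2.18 ± 0.22 (SE), adjusted p = 1.7e-08), and the peroxisomal thiolase gene Acaa1b changed by -1.65 ± 0.39. Glycolytic enzymes did not follow, since 1 of 19 passed, Pfkfb3 (1.8 ± 0.36), whose product makes the activator of phosphofructokinase. With the block 6 of them rose, and with library size alone 3. Pkm changed by 0.65 ± 0.21 (adjusted p = 0.0118; 0.000246 with the block) and Eno1 by 0.54 ± 0.21 (adjusted p = 0.0326; 0.00055 with the block).

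All 10 mitochondrially encoded transcripts tested fell, by a median of 1.88 on the log2 scale. The share of all counts on mitochondrial genes was 1.47%, 4.12%, 1.21% and 2.74% with EtOH and 0.677%, 0.958%, 0.535% and 0.767% with 4-HT. It was lower with 4-HT in every culture, and with EtOH it was higher in both duplicate 2 cultures. The subunit gene mt-Co1 measured 4303, 10622, 3198 and 6764 CPM with EtOH and 1642, 2115, 1271 and 1688 CPM with 4-HT (log2 fold change -1.89 ± 0.36 (SE), adjusted p = 0.000111). In AC organoids the share was 2.39% and 4.24% with EtOH and 1.5% and 2.35% with 4-HT. This share moves with the treatment and so with each gene group described here, and its part in those results was not tested.

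Few cholesterol synthesis genes passed, with 3 of 23 fallen (Sc5d, Hmgcs1 and Ebp) and none risen, 6 fallen and 1 risen with the block, and 1 fallen and 2 risen with library size alone, where the median log2 change was -0.01 rather than -0.18. Hmgcs1 lost its call without 3 of the 4 cultures, all but Col291 duplicate 2 (log2 -0.60 to -0.51, adjusted p up to 0.0264), and Ebp without 3, all but Col291 duplicate 1 (log2 -0.28 to -0.18, adjusted p up to 0.0676), and with the block (adjusted p = 0.013). In the stress response list 7 of 18 rose, among them the amino acid response genes Trib3 (1.39 ± 0.28) and Asns (1.13 ± 0.087) and the chaperone gene Hsph1 (1.06 ± 0.18), and 3 targets of the oxidative stress factor NRF2 fell, Srxn1 (-1.0 ± 0.17), Nqo1 and Gclm, whose call was lost without Col291 duplicate 1.

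Of 26 goblet and secretory genes 8 rose and 6 fell. Atoh1, the factor that commits cells to the secretory fate, measured 17.1, 21, 15.4 and 20.1 CPM with EtOH and 46.8, 47.3, 44.9 and 40.9 CPM with 4-HT (log2 fold change 1.29 ± 0.21 (SE), adjusted p = 1.18e-05). Spdef, the goblet cell factor, measured 23.2, 21.7, 18.5 and 20.3 CPM with EtOH and 66.6, 61.4, 59.6 and 54.7 CPM with 4-HT (log2 fold change 1.53 ± 0.24 (SE), adjusted p = 8.64e-06), and the disulfide isomerase gene Agr2 changed by 0.98 ± 0.18. Both factors were higher with 4-HT in every culture.

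Mucus protein genes were among the members that fell. Tff3 (trefoil factor 3) measured 559, 838, 416 and 453 CPM with EtOH and 183, 267, 146 and 215 CPM with 4-HT (log2 fold change -1.48 ± 0.22 (SE), adjusted p = 4.88e-06), and Fcgbp, a mucus protein gene, changed by -1.66 ± 0.27. Zg16, a lectin of goblet cell mucus, changed by -1.53 ± 0.43, a call lost without 3 of the 4 cultures, all but Col291 duplicate 2 (log2 -1.73 to -1.43, adjusted p up to 0.0231). Muc2, the main gel-forming mucin gene, did not pass (-0.42 ± 0.25, adjusted p = 0.166). The median of the list was -0.14, and 0.036 with library size alone.

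Of 21 enteroendocrine genes 2 rose and 3 fell (23.8%, against 41.9% of all genes), and 3 and 8 with the block. Neurog3, the factor of early endocrine progenitors, rose from 4.51 ± 1.4 CPM to 14.1 ± 2.39 CPM (log2 fold change 1.64 ± 0.24 (SE), adjusted p = 4.25e-06), and Tac1, the precursor gene of substance P, rose as well, a call lost without 3 of the 4 cultures, all but Col286 duplicate 1 (log2 0.68 to 1.26, adjusted p up to 0.103). The hormone genes Insl5, Cck and Gcg fell. Insl5, a hormone of colonic L cells, measured 119.9, 73.7, 69.3 and 54.4 CPM with EtOH and 14.1, 10.8, 9.3 and 12.6 CPM with 4-HT (log2 fold change -2.76 ± 0.73 (SE), adjusted p = 0.00271). Of these calls, that of Cck was lost without any 1 culture (log2 -2.24 to -2.0, adjusted p up to 0.0371) and that of Insl5 without 3 of the 4, all but Col291 duplicate 2 (log2 -2.94 to -2.59, adjusted p up to 0.0181). Gcg, the proglucagon gene, changed by -2.12 ± 0.46.

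Of 14 tuft cell genes 6 fell and none rose, and 2 to 6 fell without 1 culture. Dclk1, a kinase that marks tuft cells, measured 8.6, 7.13, 6.79 and 4.29 CPM with EtOH and 1.96, 2.88, 2.13 and 1.86 CPM with 4-HT (log2 fold change -1.6 ± 0.39 (SE), adjusted p = 0.00129), and its call was lost without Col286 duplicate 1 (log2 -1.72 to -1.4, adjusted p up to 0.0165). Genes of Paneth and deep crypt secretory cells showed 5 of 13 risen and none fallen, with 2 to 3 risen without 1 culture. Pla2g2a, a secreted antibacterial phospholipase, rose most of them (0.414, 0.362, 0.366 and 2.22 CPM with EtOH and 22.1, 8.21, 15.2 and 6.44 CPM with 4-HT; log2 fold change 3.9 ± 0.74 (SE), adjusted p = 9.95e-05). Its fitted change was 3.29 without Col286 duplicate 1 and 5.3 without Col291 duplicate 2, whose EtOH value was the highest. Itln1, a lectin, changed by 1.76 ± 0.40.

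Few genes of the fetal-like and regeneration list passed. Of 36 tested 4 rose and 2 fell (16.7%, against 41.9% of all genes), or 11 and 5 with the block, and the median was -0.12 (0.043 with library size alone). The risen members were 3 neighbouring genes of the Ly6 family, which encode small membrane-anchored proteins, and the alarmin gene Il33. Ly6a (Sca-1) measured 703, 729, 607 and 659.9 CPM with EtOH and 1452, 1480.2, 1516 and 1436 CPM with 4-HT (log2 fold change 1.12 ± 0.12 (SE), adjusted p = 4.25e-08). Ly6g measured 431, 491, 331 and 374 CPM with EtOH and 1150.0, 1227, 1143 and 1208 CPM with 4-HT (log2 fold change 1.54 ± 0.19 (SE), adjusted p = 3.77e-07), and Ly6c1 29.7, 30.9, 24.4 and 28 CPM with EtOH and 222, 195, 205 and 154 CPM with 4-HT (log2 fold change 2.78 ± 0.23 (SE), adjusted p = 1.25e-09). Each was higher in all 4-HT samples than in any EtOH sample. Il33 changed by 1.91 ± 0.49, a call lost without either duplicate 1 culture (log2 1.79 to 2.06, adjusted p up to 0.0156). The laminin genes Lamb3 and Lama3 fell.

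Ly6c2, the close copy of Ly6c1, was nearly silent with EtOH. It held 6 counts in the 4 EtOH samples together (0 to 3 per sample) and 2437 in the 4 4-HT samples, a ratio of 279 after scaling (exact 95% counting interval 128 to 761). In CPM it measured 0.0827, 0.155, 0 and 0.0363 CPM with EtOH and 21.4, 16, 22.2 and 6.9 CPM with 4-HT. Since Ly6c1 and Ly6c2 share much of their sequence, the assignment of reads between them is uncertain.

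Gasdermins form membrane pores. Of 6 tested 4 fell and none rose, Gsdmc2, Gsdmc3, Gsdmc4 and Gsdme. Gsdmc4 measured 23.6, 13.9, 40.3 and 39.5 CPM with EtOH and 0.732, 0.781, 0.591 and 2.21 CPM with 4-HT (log2 fold change -4.8 ± 0.68 (SE), adjusted p = 2.39e-06). Gsdmc3 held 7 counts in the 4 4-HT samples (0 to 3 per sample) and 174 in the EtOH samples, a 36.2-fold difference (exact 95% counting interval 17.2 to 91.3). Its fitted log2 change was -5.02, and -5.62 to -4.41 without 1 culture in turn. The Gsdmc genes are near-identical neighbours and may exchange reads. Gsdmd, the gasdermin cut by inflammatory caspases, did not pass. Among matrix proteases and invasion genes 4 of 25 rose and 5 fell, or 6 and 4 with library size alone. Mmp2, a gelatinase gene, had a change of 2.21 ± 0.50 at 0.161 and 0.743 CPM, and this call was lost when all libraries were thinned to the smallest total. The protease inhibitor gene Serpinb1a fell (-1.31 ± 0.10), as did Epcam and Cdh1, the latter not without Col286 duplicate 1.

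Genes of the interferon response and of antigen presentation fell, 16 of 26 with none rising (median -1.29). Psmb8, a subunit of the immunoproteasome that cuts peptides for MHC class I, measured 0.869, 0.413, 0.772 and 0.944 CPM with EtOH and 0.0944, 0, 0.231 and 0.14 CPM with 4-HT (log2 fold change -2.61 ± 0.61 (SE), adjusted p = 0.000812). Ifit1, an interferon-induced antiviral gene, changed by -2.64 ± 0.44. The class I light chain gene B2m measured 227, 318, 204 and 277 CPM with EtOH and 96.2, 87.2, 80.2 and 82.6 CPM with 4-HT (log2 fold change -1.57 ± 0.13 (SE), adjusted p = 1.66e-09), and the heavy chain gene H2-K1 changed by -0.69 ± 0.082. The 4 4-HT values of Psmb8 and B2m were below every EtOH value.

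Of 19 chemokine and cytokine genes 8 fell and 3 rose. Il18, an inflammasome cytokine made by the epithelium, measured 60.6, 46.1, 48.9 and 67.5 CPM with EtOH and 9.09, 8.04, 8.74 and 10.4 CPM with 4-HT (log2 fold change -2.62 ± 0.19 (SE), adjusted p = 2.4e-10). Ccl20, which draws CCR6-bearing lymphocytes, changed by -2.65 ± 0.50, Ccl28 by -2.5 ± 0.24 and Ccl6 by -2.24 ± 0.28. The 3 that rose were Il33, Tgfb1 and Lif. The summed level of the list was 1187 to 1616 CPM with EtOH and 911 to 1014 CPM with 4-HT.

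Factors of intestinal identity were mixed, with 3 of 21 risen (Foxa2, Foxa1 and Grhl2) and 6 fallen, or 10 fallen with the block. The call of Foxa2 was lost without 3 of the 4 cultures, all but Col291 duplicate 2 (log2 0.77 to 0.86, adjusted p up to 0.0164). Klf4, a factor of terminally differentiated cells, fell (-1.61 ± 0.22). Hnf4a did not pass (-0.31 ± 0.11, adjusted p = 0.0247; 0.00446 with the block). None of the 3 gastric genes tested of 14 listed passed, and with so few members this list was not read. In the BMP list 3 of 19 rose and 2 fell (5 and 3 with the block, 6 and 2 with library size alone), with Bmp2 at -1.46 ± 0.33, Bmp3 at -1.89 ± 0.31 and Bmp7 at 1.62 ± 0.21. In the NOTCH list 5 of 16 rose and none fell (8 with the block or library size alone), with the ligand gene Jag2 at 1.87 ± 0.21 and Hes6, a secretory lineage factor, at 1.15 ± 0.12.

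The 12 genes with the largest rises at a mean of at least 1 CPM were Ly6c2, Rhox5, Padi4, Nat8l, Lgals1, Pla2g2a, Nptx2, Pcolce2, Piwil4, Sh2d5, Cped1 and Ehd3. With EtOH, all of them but Pla2g2a were at 1.39 CPM or less in every sample. Lgals1, which encodes galectin 1, measured 1.32, 0.723, 0.853 and 0.981 CPM with EtOH and 20, 14.1, 17.3 and 11 CPM with 4-HT (log2 fold change 3.99 ± 0.36 (SE), adjusted p = 3.24e-09). Padi4, a peptidylarginine deiminase gene, measured 0.372, 0.31, 0.488 and 0 CPM with EtOH and 5.83, 4.68, 4.91 and 5.01 CPM with 4-HT (log2 fold change 4.14 ± 0.59 (SE), adjusted p = 2.69e-06), and the pentraxin gene Nptx2 0.538, 1.39, 1.18 and 0.399 CPM with EtOH and 10.1, 12.5, 13.2 and 8.51 CPM with 4-HT (log2 fold change 3.68 ± 0.37 (SE), adjusted p = 1.54e-08). Of the 12, Pla2g2a is the only member of a list described above. Piwil4, a PIWI protein gene otherwise known from the germline, changed by 3.48 ± 0.28, and Rhox5, an X-linked homeobox gene of the reproductive tract, by 4.21 ± 0.97, a call lost with limma-voom.

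The 12 genes with the largest falls were Cyp2f2, Prr5l, Gsdmcl2, H2-T3, Cyp2c68, Gsdmc4, Nxpe5, Apol10a, Trim30d, Slc6a4, Ugt2b36 and Tgm3. Slc6a4, the serotonin transporter, measured 6.83, 9.04, 7.64 and 8.06 CPM with EtOH and 0.212, 0.441, 0.283 and 0.455 CPM with 4-HT (log2 fold change -4.52 ± 0.55 (SE), adjusted p = 2.43e-07). Apol10a, of the apolipoprotein L family, measured 49.2, 59.4, 55.7 and 37.7 CPM with EtOH and 1.23, 2.85, 1.57 and 2.8 CPM with 4-HT (log2 fold change -4.61 ± 0.37 (SE), adjusted p = 7.29e-10), and the transglutaminase gene Tgm3 29.5, 20.5, 18.6 and 50 CPM with EtOH and 0.637, 0.882, 0.488 and 3.68 CPM with 4-HT (log2 fold change -4.43 ± 0.96 (SE), adjusted p = 0.000412; -5.1 without Col291 duplicate 2). All 4-HT values were below the EtOH values for all 12. The call of Nxpe5 (-4.74 ± 1.44) was lost without any 1 of the 4 cultures (log2 -5.32 to -4.44, adjusted p up to 0.0352). H2-T3, a non-classical MHC class I gene with near copies, changed by -5.39 ± 0.53 (-6.06 without Col286 duplicate 2).

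By reads rather than by ratio, the largest losses were those of Dmbt1, mt-Rnr2, Lars2, Car1 and Gm23935, and the largest gains those of Pkm, Gpx2, Eno1, Eif5a and Ly6a. Dmbt1, a secreted scavenger receptor, measured 8832, 7629, 8654 and 6487 CPM with EtOH and 718, 1256, 599.8 and 1253 CPM with 4-HT (log2 fold change -3.05 ± 0.34 (SE), adjusted p = 6.31e-08). Car1, the carbonic anhydrase of colonocytes, measured 9658, 10802, 10194 and 12284 CPM with EtOH and 3350.4, 5134, 3480.3 and 5008 CPM with 4-HT (log2 fold change -1.34 ± 0.25 (SE), adjusted p = 8.44e-05). Both fell in every culture. The mitochondrial ribosomal RNA mt-Rnr2 changed by -1.98 ± 0.56, a call lost without 3 of the 4 cultures, all but Col291 duplicate 1 (log2 -2.13 to -1.63, adjusted p up to 0.0319). Lars2 and Gm23935 did not pass (adjusted p = 0.0191 and 0.0132), and passed with the block (0.000668 and 0.00073). Of the gains, Pkm and Eno1 did not pass either except with the block, as given above. Gpx2, the epithelial glutathione peroxidase, measured 1576, 1065, 1444 and 1276 CPM with EtOH and 2944, 2394, 3089 and 2574 CPM with 4-HT (log2 fold change 1.04 ± 0.23 (SE), adjusted p = 0.000606), and Eif5a, a translation factor, changed by 0.76 ± 0.098.

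The change of BAC organoids was compared with that of AC organoids, which lose Apc and lack the Braf allele. With 1 AC donor, donor and genotype cannot be told apart in this comparison. The difference between the 2 changes passed the threshold for 29 genes (0.215%), of which 9 were more positive in BAC (0.0666%) and 20 more negative (0.148%). All 29 were also called with the culture as a block, where the count was 199 (1.47%), 67 more positive (0.496%) and 132 more negative (0.976%). The 4 BAC changes did not overlap the 2 AC changes for any of the 29, nor for 37.3% of all genes. AC rested on 1 donor with 2 cultures: without duplicate 1 of AC no gene passed, and without duplicate 2 of AC 2 genes passed, so these calls depend on both. DESeq2 called 173 genes. The median standard error of this difference was 0.264 on the log2 scale against 0.153 for the BAC change itself. A difference had to exceed its standard error several-fold to pass, so differences well above 0.264 could be missed.

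The largest positive differences were those of the Ly6 genes. Ly6c2 measured 0.319 and 0.0841 CPM with EtOH and 0.346 and 0.144 CPM with 4-HT in AC duplicates 1 and 2, and the difference was 7.66 ± 1.35 (SE), adjusted p = 0.00484. Ly6c1 measured 18.8 and 28 CPM with EtOH and 36.3 and 40 CPM with 4-HT in AC, with changes of 0.95 and 0.52 there and 2.9, 2.66, 3.07 and 2.46 in BAC (2.08 ± 0.38 (SE), adjusted p = 0.00701). Ly6g changed by -0.18 and -0.31 in AC and by 1.42, 1.32, 1.79 and 1.69 in BAC (1.79 ± 0.33 (SE), adjusted p = 0.00647). For Ly6g the 4-HT value was thus slightly lower in both AC cultures and higher in all BAC cultures. Without 1 BAC culture in turn, the adjusted p ranged from 0.0137 to 0.0289 for Ly6c1, from 0.011 to 0.0245 for Ly6g and from 0.00534 to 0.0167 for Ly6c2, whose difference was 8.31 without Col286 duplicate 2 and 7.08 without Col291 duplicate 1.

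Cav2 and Smim3 followed. Cav2, a caveolin gene, measured 36.1, 36.7, 37.3 and 37.2 CPM with EtOH and 137, 134, 139.8 and 125 CPM with 4-HT in BAC and 32.9 and 41.5 CPM with EtOH and 36.5 and 56.5 CPM with 4-HT in AC (1.55 ± 0.23 (SE), adjusted p = 0.00186). Smim3, encoding a small membrane protein, changed by 1.99, 2.24, 1.91 and 2.13 in BAC and 0.27 and 0.80 in AC (1.51 ± 0.25 (SE), adjusted p = 0.0035). The BAC changes of both genes were tightly grouped. The other genes more positive in BAC were Asns, Psat1 (serine synthesis), Fzd1 (a WNT receptor) and Tmem65, named after their values were seen.

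The largest negative differences were those of Cyp2c68, Ccl6, Tnfsf10, Slc1a1 and Il18. Cyp2c68 measured 42.1 and 28.9 CPM with EtOH and 23.8 and 11.5 CPM with 4-HT in AC, with changes of -0.82 and -1.33 there and -5.5, -4.73, -5.85 and -4.45 in BAC (-4.05 ± 0.63 (SE), adjusted p = 0.00247). Il18 measured 48.6 and 45.3 CPM with EtOH and 42.7 and 47 CPM with 4-HT in AC, with changes of -0.18 and 0.055 there and -2.73, -2.51, -2.48 and -2.69 in BAC (-2.56 ± 0.31 (SE), adjusted p = 0.000134). For Il18 the EtOH and 4-HT values overlapped in AC, while 4-HT values were lower in each BAC culture. Tnfsf10, the death ligand TRAIL, changed by -0.96, -2.68, -1.75 and -3.11 in BAC and 0.67 and 0.96 in AC (-2.95 ± 0.51 (SE), adjusted p = 0.00425).

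Ccl6 changed by -1.84, -2.17, -2.14 and -2.47 in BAC and 1.34 and 0.091 in AC (-2.98 ± 0.47 (SE), adjusted p = 0.00247). Slc1a1, a glutamate transporter gene, changed by -2.72, -3.36, -3.09 and -3.71 and -0.40 and -1.03 (-2.7 ± 0.47 (SE), adjusted p = 0.00484). The calls of Tnfsf10 and Slc1a1 were lost without Col286 duplicate 2 or either Col291 culture (adjusted p up to 0.0152 and 0.0173). Leaving out 1 AC culture in turn gave adjusted p of 0.0219 to 0.0314 for Il18, 0.0368 to 0.115 for Cyp2c68, 0.0219 to 0.175 for Ccl6 (difference -3.59 to -2.33), 0.0687 to 0.231 for Slc1a1 and 0.115 to 0.133 for Tnfsf10. It gave 0.0431 to 0.508 for Ly6c2, 0.115 to 0.208 for Ly6c1, 0.156 to 0.176 for Ly6g, 0.00604 to 0.0541 for Cav2 and 0.0253 to 0.17 for Smim3, so that of the 10 genes Cav2 alone kept its call in 1 of the 2 fits.

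**Figure D5:**
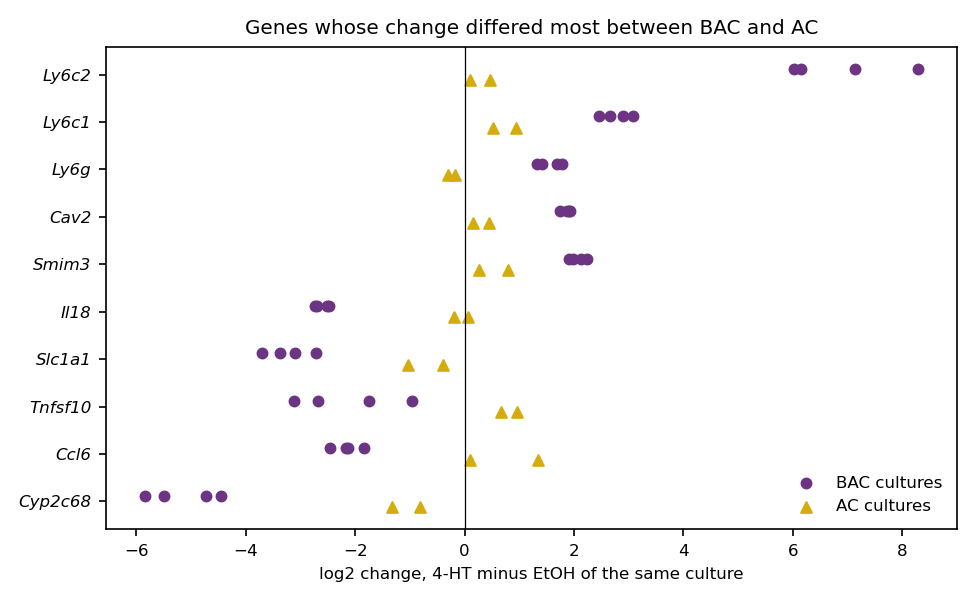
Log2 change from EtOH to 4-HT within each culture for the 10 genes named for their difference between BAC and AC. Purple dots are the 4 BAC cultures and yellow triangles the 2 AC cultures, and the 2 sets do not overlap for any of the 10.

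Few members of the lists passed this test. None of the WNT, stem cell, colonocyte, replication, mitosis, ERK feedback or AP-1, EGR and ETS genes did. Ly6g and Ly6c1 of the fetal-like list, Asns of the stress list, Il18 and Ccl6 of the chemokine list, Cyp2c68 and Ces1e did. With the block 1 ERK feedback inhibitor and 3 AP-1, EGR and ETS factors were more positive in BAC, and 1 such factor and 2 colonocyte genes more negative. The conjugation enzymes, the cytochrome P450 genes and the chemokines and cytokines each had 3 more negative members with the block. The median difference was 0.24 over the WNT list, 0.27 over ERK feedback inhibitors and 0.39 over ribosome biogenesis genes. Over replication genes it was 0.24 and over mitosis genes 0.36. Medians were negative over colonocyte genes (-0.40), stem cell genes (-0.18) and AP-1, EGR and ETS factors (-0.13). A missed threshold does not show that BAC and AC responded alike.

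No gene passed the threshold for a difference between the BAC and BPAC changes (0%), by edgeR's quasi-likelihood test, by limma-voom or with the block, while DESeq2 called 1 and an unadjusted p under 0.05 was reached by 200 genes. Trp53, the locus of the additional allele in BPAC, was looked up after its value was seen. Its difference was -0.86 ± 0.15 (SE, adjusted p = 0.0627), with BPAC changes of 1.48 to 2.03 and BAC changes of 0.91, 1.01, 0.89 and 1.09. The BAC and BPAC donors share no control samples. The median standard error of the difference was 0.216, and differences several times that size could be missed, as that of Trp53 was.

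The 2 BAC donors were compared in the same way, and no gene passed (0%), with 81 genes at an unadjusted p under 0.05 and 0 called by limma-voom. Each donor alone gave 3088 calls for Col286 and 2698 for Col291, of which 2373 were shared, all in one direction. Between the duplicates 1 gene passed (0.0074%) and 649 had an unadjusted p under 0.05. Duplicate 1 alone gave 5169 calls and duplicate 2 alone 2838, with 2569 shared and all of these in one direction. Across genes, the changes of 2 cultures correlated most between the 2 duplicate 1 cultures (Pearson's r = 0.885 over 13519 genes, given as a description), followed by the 2 duplicate 2 cultures (0.827). The cultures of 1 donor (0.80 and 0.813) were at the level of those that shared neither donor nor duplicate (0.801 and 0.802).

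The gene that differed between duplicates was Osgin1, which the oxidative stress factor NRF2 induces. It measured 68.4, 28.7, 78.5 and 31 CPM with EtOH and 17.9, 21.1, 18.7 and 22.7 CPM with 4-HT, with culture changes of -1.93, -0.44, -2.07 and -0.45. The fall was 1.56 ± 0.15 (SE) larger on the log2 scale in duplicate 1 (adjusted p = 0.000258 by edgeR's quasi-likelihood test). Both duplicate 1 EtOH samples were higher than both duplicate 2 EtOH samples. Its overall call in BAC was lost without either duplicate 1 culture (log2 -1.61 to -1.05, adjusted p up to 0.0164).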

How the data were processed

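RNA-seq of colon organoids was analysed from gene counts. The authors deposited raw read counts per gene, not normalized. Their processing notes name Trimmomatic 0.39, STAR 2.5.2b and GRCm38/mm10, and the counting program, annotation and strand setting are not given in the sources used here, so overlapping antisense genes cannot be separated. The members and lists were chosen with earlier results of these data known. Genes were matched by Ensembl ID to GENCODE symbols on GRCm38 (13479 of 13519). A 4-HT label of donor Col291 that lacks a number was read as duplicate 1.

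Counts were scaled by TMM and tested with edgeR 4.0.16 (R 4.3.3) by the quasi-likelihood test over all 28 samples in 8 groups (4 genotypes, 2 treatments). P-values were adjusted by Benjamini-Hochberg over all genes, and 0.01 was the threshold. Standard errors are the log2 fold change divided by the root of F. Culture changes are differences of log2 CPM with a prior count of 2. The paper names limma, so limma-voom (limma 3.58.1) and DESeq2 1.42.0 were alternatives, with other scalings, filters, thinning, donors or duplicates alone, left-out cultures and the culture as a block. EtOH and 4-HT samples of the same number come from the same mouse, and their deviations from the group means correlated at 0.331, 0.376, 0.414 and 0.423 within the 4 cultures. No 2 replicates agreed within sampling noise (chi-square per degree of freedom at least 8.38). In the fit, 2 4-HT PAC samples of duplicate 1 each held both Xist and Y-linked counts, and without them BAC gave 5554 calls. The tests of the BAC change and of its difference from AC were tried on simulated data, and the other fits were not.

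Named genes were the 12 largest rises and falls past the threshold with a mean of at least 1 CPM and one direction in all 4 cultures, the 5 largest differences from AC in each direction, genes past the threshold between donors or duplicates, about 4 members per list by size of change, and the 5 largest gains and losses in CPM. Other list members and Trp53 were named after their values were seen. Not every gene that this rule names is reported here. Figures were drawn with matplotlib 3.10.9. Protein sequences were not used here.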

Additional observations from a re-analysis of the deposited data

Results flagged for a closer look

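Among 208 named genes, each with 4 culture changes, 7 had 1 culture apart from the other 3 by Dixon's test, and chance alone flags about 1 in 20 such groups. The change of Cyp3a25 was -1.82 in Col291 duplicate 2 and between -3.05 and -2.87 in the others. That of Zg16 was -0.93 in Col291 duplicate 2 (others -1.76 to -1.71), that of mt-Atp6 -1.78 (others -2.30 to -2.26), and that of Egfr -0.37 (others -0.55 to -0.53), all 3 in the same culture as Cyp3a25. In Col286 duplicate 1, Dusp10 changed by -1.29 (others -1.19 to -1.17) and Dusp5 by -1.17 (others -0.91 to -0.87). In Col291 duplicate 1, Ugt2b36 changed by -5.08 (others -4.11 to -3.96). In each case all 4 cultures moved in one direction.

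The 4-HT change differed between BAC and AC organoids, by the test of the difference itself, for the 10 genes named in that comparison. The differences were -4.05 for Cyp2c68, -2.98 for Ccl6, -2.95 for Tnfsf10, -2.70 for Slc1a1, -2.56 for Il18, 7.66 for Ly6c2, 2.08 for Ly6c1, 1.79 for Ly6g, 1.55 for Cav2 and 1.51 for Smim3 on the log2 scale. Between duplicates 1 and 2 of BAC the change of Osgin1 differed by -1.56.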

How the results depend on the processing

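The 5660 calls of BAC stayed within 1.5 times under every other scaling, filter and tool, the replicate block (7017) and without 1 culture or sample in turn (4425 to 5310). They went to 3088 for donor Col286 alone (1576 higher, 1512 lower), 2698 for donor Col291 alone (1378 and 1320), 2838 for duplicate 2 alone (1430 and 1408) and 484 for more than 2-fold (98 and 386). The last asks a stricter question. Duplicate 1 alone, with as many samples as duplicate 2, gave 5169. The 29 calls against AC went to 199 with the replicate block, 173 with DESeq2, 143 with the duplicate number as covariate, 160 at an adjusted p of 0.05, 12 in duplicate 1 alone, 0 in duplicate 2 alone, 7 to 23 without 1 BAC culture and 0 to 2 without 1 AC culture. The cause of these changes was not tested. Against BPAC DESeq2 called 1 gene, and 1 passed without BPAC Col287 replicate 2, while 0 passed without 1 BAC culture in turn. Braf turned to -0.070 in duplicate 1 alone. Of 5766 alternative values for single genes the others kept their direction. Pairing by culture changed no call named in the report other than those given there. The leave-outs of single samples and AC or BPAC cultures, the covariate and the fits without 2 PAC samples were chosen after the data were seen.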
